A study of Mus musculus with 12 samples.

Results

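The genes described here encode 10 cytokines: tumour necrosis factor (Tnf), interleukin-6 and its relatives oncostatin M (Osm) and leukaemia inhibitory factor (Lif), the IL-20 subfamily members Il19, Il20 and Il24, the IL-23 subunit Il23a, and the colony-stimulating factors Csf2 and Csf3. They are a list of names chosen with earlier results of these data known, and were matched by symbol to the Ensembl rows of the count table, where all 10 of 50684 genes were found. The libraries came from ear skin of 8-week-old female C57BL/6 mice whose ear pinnae were injected intradermally with PBS, with 1 µg of recombinant murine IL-17A, with 1 µg of IL-36γ, or with 1 µg of each, dissolved in PBS in a volume of 5 µl. Ears were taken after 4 days of consecutive treatment. Each group held 5 mice, and 3 of them per group were sequenced from total RNA, which gave 12 libraries. The question of the study was how the 2 cytokines act alone and together in a model of psoriatic skin. The libraries hold RNA of whole ear tissue, so a lower number of cells of a type and less RNA in each cell cannot be told apart. The p-values measure the spread between these mice.

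In GRCm38, Tnf lies at chr17:35199381-35202007 (minus strand), Il6 at chr5:30013114-30019981 (plus), Il23a at chr10:128296139-128298752 (minus), and Il24, Il20 and Il19 at chr1:130882074-130887454, chr1:130906985-130911451 and chr1:130932656-130940115 (all minus). Chromosome 11 holds Osm at chr11:4236420-4241026 (plus), Lif at chr11:4257557-4272514 (plus), Csf2 at chr11:54247271-54249667 (minus) and Csf3 at chr11:98701263-98703629 (plus). Levels were counted over their exons.

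Tumour necrosis factor is released by macrophages, mast cells, keratinocytes and T cells, and drives NF-κB signalling in nearly all skin cells. The IL-6 family signals through the shared receptor chain gp130 (Il6st) and STAT3, while IL-19, IL-20 and IL-24 act on keratinocytes through receptors that hold Il20rb and are known for epidermal thickening in psoriasis. G-CSF, the product of Csf3, is the growth factor of neutrophils, GM-CSF (Csf2) acts on neutrophils, macrophages and dendritic cells, and Il23a pairs with Il12b to form IL-23, which maintains T cells that make IL-17A.

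The messages of such cytokines are typically short-lived, and their 3′ untranslated regions carry AU-rich elements that decay factors such as tristetraprolin (Zfp36) bind. The densest stretches of the AU-rich pentamer ATTTA in 4 of the genes are shown because the decay factors that read them were among the genes that changed. Each is 30 bases of the 3′ untranslated region of GRCm38 in the sense direction, and capitals mark the pentamers:
Tnf, chr17:35199679-35199708, minus strand: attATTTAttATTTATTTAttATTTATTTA
Csf2, chr11:54247329-54247358, minus strand: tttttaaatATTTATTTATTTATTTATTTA
Csf3, chr11:98702984-98703013, plus strand: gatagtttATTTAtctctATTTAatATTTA
Il6, chr5:30019677-30019706, plus strand: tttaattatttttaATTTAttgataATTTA

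Over the whole 3′ untranslated region, Csf2 held 9 pentamers (28.4 per kb), Tnf 8 (10.5 per kb) and Il6 6 (14.1 per kb). The median of 20098 protein coding genes was 1.19 per kb, and 36.8% of them held none. Of the 10 cytokine genes, 8 had a density that at most 5.42% of genes reached. Il20 held 5 pentamers, Il24 4, and Il23a, Csf3 and Osm 6 each. Lif, with 7 pentamers in a region of 3180 bases (2.20 per kb), and Il19, with 1 in 492 bases (2.03 per kb), lay closer to the median, since 32.5% and 35.1% of genes were as dense.

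**Figure D1:**
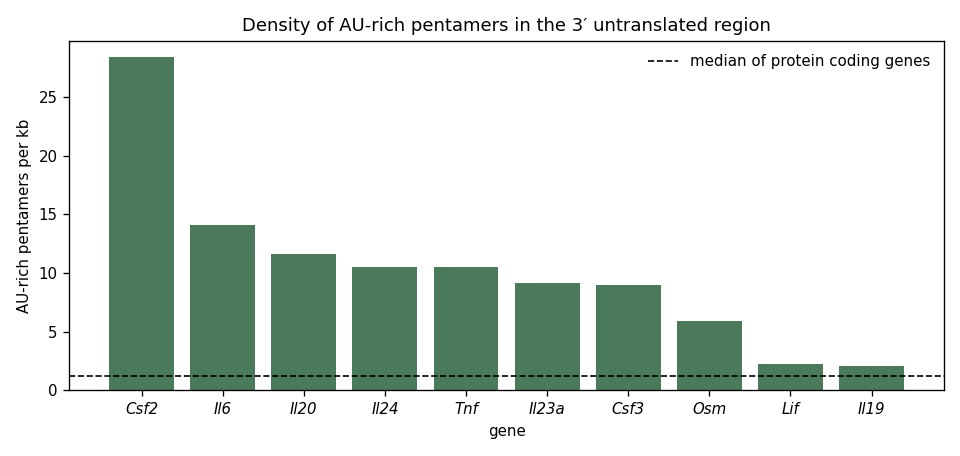
AU-rich pentamers per kb of 3′ untranslated region in each of the 10 cytokine genes, with the median of protein coding genes as a dashed line. Csf2 stands highest at 28.4 per kb, and Lif and Il19 stand close to the median of 1.19 per kb.

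For the promoters, the 250 bases before the start site were taken from RefSeq (GRCm38.p6), where 6 of the 10 genes were matched: Tnf, Il6, Lif, Il19, Il20 and Csf2. Promoters of Tnf, Il6 and Il19, which rose with the combination, and of Lif, which did not pass any test, are shown side by side. Capitals mark matches on either strand to GGG and CC with 5 bases of any kind between them (the κB pattern), TGANTCA (AP-1), TTGCNNAA (C/EBP) and TATAAA, of which no match shared a base with a match of another pattern:
Il6, chr5:30012864-30013113, plus strand: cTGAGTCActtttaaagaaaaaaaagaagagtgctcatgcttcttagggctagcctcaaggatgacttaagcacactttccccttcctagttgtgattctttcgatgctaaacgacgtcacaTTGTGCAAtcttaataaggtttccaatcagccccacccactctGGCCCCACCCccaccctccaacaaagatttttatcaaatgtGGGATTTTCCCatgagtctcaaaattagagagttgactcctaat
Tnf, chr17:35202008-35202257, minus strand: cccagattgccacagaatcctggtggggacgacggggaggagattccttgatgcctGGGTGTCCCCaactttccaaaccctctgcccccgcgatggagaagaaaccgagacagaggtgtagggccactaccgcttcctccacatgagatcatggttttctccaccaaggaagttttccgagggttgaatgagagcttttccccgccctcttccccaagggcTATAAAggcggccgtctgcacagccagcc
Il19, chr1:130940116-130940365, minus strand: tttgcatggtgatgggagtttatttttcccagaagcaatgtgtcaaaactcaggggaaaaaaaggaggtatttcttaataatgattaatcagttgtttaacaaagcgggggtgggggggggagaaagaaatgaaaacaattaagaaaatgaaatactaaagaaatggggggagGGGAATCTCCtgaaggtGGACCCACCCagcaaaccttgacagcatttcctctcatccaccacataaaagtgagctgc
Lif, chr11:4257318-4257567, plus strand: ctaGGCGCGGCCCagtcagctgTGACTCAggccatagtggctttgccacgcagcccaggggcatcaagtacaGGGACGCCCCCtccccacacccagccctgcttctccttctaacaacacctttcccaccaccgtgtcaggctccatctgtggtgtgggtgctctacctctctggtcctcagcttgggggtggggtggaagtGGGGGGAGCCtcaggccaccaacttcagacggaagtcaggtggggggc

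The κB pattern matched in the promoters of 5 of the 6 genes, at 1 place in Tnf and Il20, 2 in Il19, 3 in Il6 and 4 in Lif, counting overlapping places separately. This pattern is loose, since 45.8% of 32851 promoters of this length hold it. The AP-1 pattern, found in 6.75% of promoters, matched in Il6 and Lif, the C/EBP pattern (9.56%) in Il6 and Csf2, and the TATA pattern (12.4%) in Tnf. The promoter of Lif thus held the κB and AP-1 patterns as that of Il6 did. The start sites of RefSeq differ in places from the gene positions given above. The window of Csf2 (chr11:54249900-54250149) does not adjoin that position. Those of Il20 (chr1:130911297-130911546) and Lif reach into it. These matches describe letters in the window only.

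The total of counts per library lay between 25293468 and 34759293, and at this depth the cytokine genes gave between 0 and 201 counts in a library. Levels are given as CPM, counts per 1000000 counts of the library after TMM scaling, and genes were called changed at an adjusted p-value below 0.05 of edgeR's quasi-likelihood test with an absolute log2 fold change above 1, except for the interaction described further on, where the adjusted p-value alone decided. Of the 10 genes, 7 passed the filter on low counts and were tested among 19408 genes; Il24, Il23a and Csf2 did not. Il6 reached the level of the filter in none of the PBS libraries, Il19 reached it in 5 libraries and Csf3 in 4, each time with the 3 libraries of the combination among them, so a count over the tested genes is a description and carries no weight of its own. IL-17A replicate 1 stood apart, with the highest share of mitochondrial counts, 5.66% against 3.11% to 4.55% in the others, and the highest neutrophil markers of its group. PBS replicate 1 stood apart in 3 skeletal muscle markers (Acta1, Ckm and Myh4), which summed to 90.1 CPM against 1365 and 1125 CPM in the other 2 PBS libraries; they summed to 382 to 1095 CPM in the single treatments and to 50.5 to 462 CPM with the combination.

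Against PBS, the combination of IL-17A and IL-36γ raised Il6, Il19, Csf3, Osm and Tnf, with log2 fold changes from 1.12 to 4.75, while Lif and Il20 were not called. These were 5 of the 7 tested genes, and 7.35% of all tested genes were raised. IL-36γ alone raised 2, Il6 and Osm, where 5.11% of all tested genes were raised. IL-17A alone raised Il6 only among the 7, where 1.07% of all tested genes were raised. None of the 7 was lowered in these comparisons, which share the PBS libraries, against 6.06% of all tested genes with the combination, 1.98% with IL-36γ and 1.03% with IL-17A. All 3 treated libraries lay above all 3 PBS libraries in 5 of the 7 genes with the combination (27% of all tested genes), in 4 with IL-36γ (22.4%) and in 1 with IL-17A (19.6%). The median log2 fold change of the 7 genes was 1.49 with IL-17A, 1.47 with IL-36γ and 2.12 with both, against 0.04, -0.02 and -0.03 over all tested genes. These medians include Il19 and Csf3, which passed the filter on low counts largely through the combination libraries. Like the counts, they are a description and carry no weight of their own. Without PBS replicate 1 the combination still raised 5 of the 7 genes, IL-36γ raised 1 (Il6) and IL-17A raised 0.

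**Figure D2:**
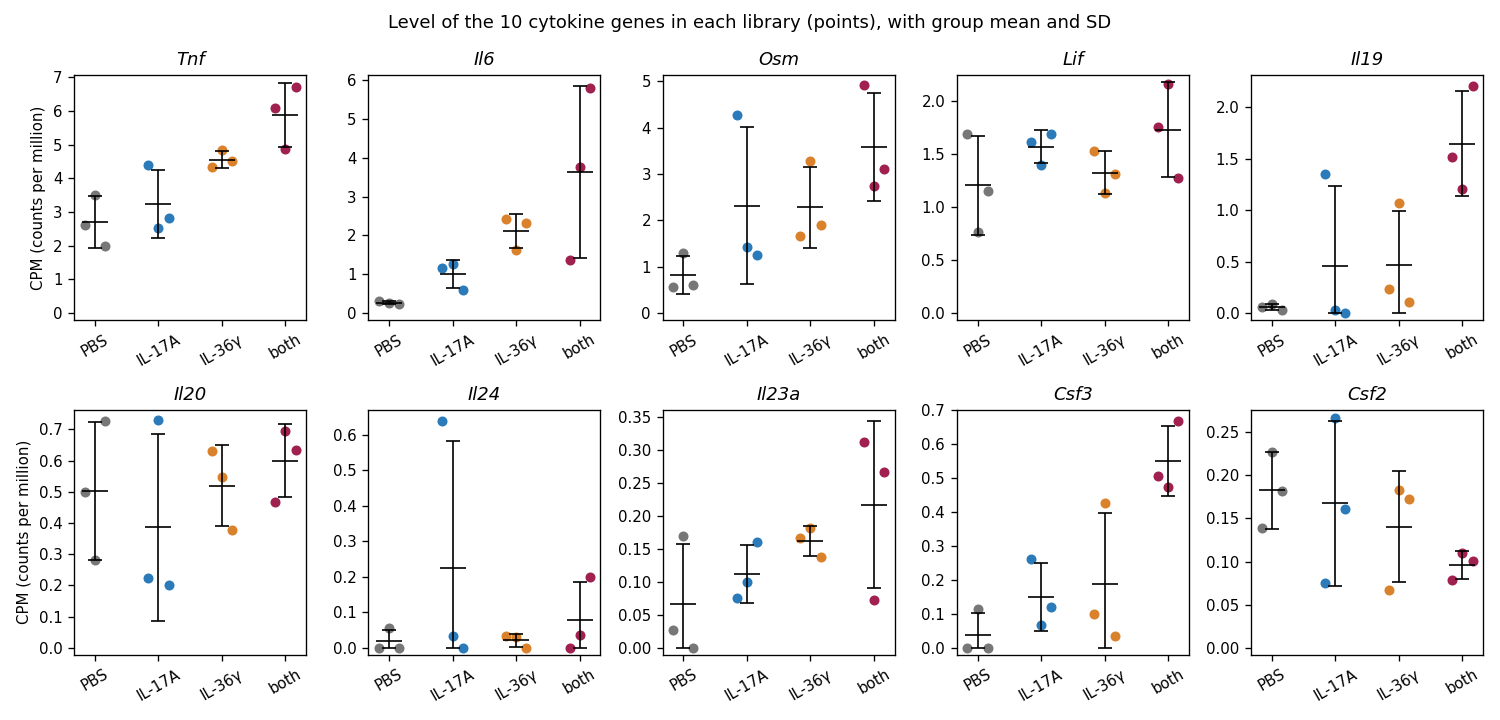
CPM of each of the 10 cytokine genes in the 12 libraries; points are libraries, horizontal marks are group means and bars are ± SD (n = 3), with lower ends drawn no further than 0. In Il6, Il19, Csf3, Osm and Tnf all 3 libraries of the combination lie above the 3 PBS libraries, whereas in Lif and Il20 the groups overlap.

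Tnf was measured at 2.60, 3.51 and 2.0 CPM in the PBS libraries and at 4.40, 2.53 and 2.82 CPM with IL-17A. With IL-36γ it stood at 4.33, 4.84 and 4.51 CPM, and with the combination at 6.09, 4.86 and 6.72 CPM. The IL-36γ and combination libraries all lay above every PBS library, and the IL-17A libraries overlapped with those of PBS. The fitted log2 fold change against PBS was 0.26 (SE 0.24, adjusted p = 0.494) with IL-17A and 0.75 (SE 0.24, adjusted p = 0.0337) with IL-36γ, which is below the fold change required. With the combination it was 1.12 (SE 0.24, adjusted p = 0.00256), just above that requirement, and it fell under it with scaling by library size alone (0.98) and without PBS replicate 3 (0.95). The value of 0.26 with IL-17A rested on replicate 1, without which it was -0.05.

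Interleukin-6, the founding member of its family and an inducer of STAT3 signalling and the acute-phase response, was the gene with the most calls. The PBS libraries held 11, 9 and 8 counts, those of IL-17A 31, 38 and 15, those of IL-36γ 73, 53 and 67, and those of the combination 35, 103 and 173. The mean level was 0.267 ± 0.0328 CPM (SD, n = 3) with PBS, 1.01 ± 0.356 CPM with IL-17A, 2.12 ± 0.439 CPM with IL-36γ and 3.64 ± 2.21 CPM with both. All 9 treated libraries lay above all PBS libraries, and the IL-36γ libraries lay above those of IL-17A. The combination libraries spread widely, with replicate 1 at 1.37 CPM below every IL-36γ library and replicates 2 and 3 at 3.77 and 5.79 CPM above them.

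The log2 fold change of Il6 against PBS was 1.91 (SE 0.55, adjusted p = 0.0471) with IL-17A, 2.96 (SE 0.51, adjusted p = 0.00175) with IL-36γ and 3.75 (SE 0.50, adjusted p = 0.000152) with the combination. The calls with IL-36γ and with the combination held in all 19 alternative analyses in which Il6 could be tested. The call with IL-17A did not: it was lost in 13 of 19, among them the omission of any PBS replicate, IL-17A replicates 1 or 2, any IL-36γ replicate or combination replicate 2, with log2 fold changes from 1.68 to 2.02 and adjusted p-values up to 0.166. The combination exceeded IL-17A alone by 1.84 (SE 0.43, adjusted p = 0.00747). It exceeded IL-36γ alone by 0.79 (SE 0.40, adjusted p = 0.372), and was not called.

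Oncostatin M is made mainly by neutrophils, macrophages and T cells and acts on keratinocytes. Osm stood at 0.554, 1.3 and 0.606 CPM with PBS and at 4.28, 1.43 and 1.25 CPM with IL-17A. It stood at 1.66, 3.29 and 1.89 CPM with IL-36γ, and at 4.92, 2.74 and 3.11 CPM with the combination. The IL-36γ and combination libraries lay above all PBS libraries, while IL-17A replicate 3 lay below PBS replicate 2. IL-17A replicate 1 was the second highest of the 12 libraries.

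The log2 fold change of Osm against PBS was 1.49 (SE 0.51, adjusted p = 0.0763) with IL-17A, 1.47 (SE 0.51, adjusted p = 0.0477) with IL-36γ and 2.12 (SE 0.50, adjusted p = 0.00515) with the combination. The difference between the single cytokines was -0.02 (SE 0.47, adjusted p = 0.989), a value that rested on IL-17A replicate 1. Without it, Osm stood 0.67 above PBS with IL-17A, and IL-36γ exceeded IL-17A by 0.78 (SE 0.42, adjusted p = 0.325). The call with the combination held in all 20 alternative analyses. That with IL-36γ was lost in 9 of 20, among them the omission of PBS replicates 1 or 3, IL-17A replicate 2, any IL-36γ replicate or combination replicates 2 or 3, with adjusted p-values up to 0.179. Also without IL-17A replicate 1, the combination exceeded IL-17A by 1.44 (adjusted p = 0.0268), against 0.63 (adjusted p = 0.325) with all libraries.

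Lif, which shares its receptor chains with other gp130 cytokines and lies 16.5 kb from Osm on chromosome 11, was called in no comparison. Its mean level was 1.20 ± 0.464 CPM with PBS, 1.57 ± 0.153 CPM with IL-17A, 1.32 ± 0.202 CPM with IL-36γ and 1.73 ± 0.444 CPM with both (SD, n = 3). The groups overlapped in every comparison. The log2 fold changes against PBS were 0.38 (SE 0.28), 0.13 (SE 0.28) and 0.52 (SE 0.28), with adjusted p-values of 0.386, 0.746 and 0.151. Leaving out single libraries moved the value with the combination between 0.28 and 0.85, with adjusted p-values from 0.0223 to 0.444, and it was never called. PBS replicate 1 held 1.69 CPM, against 0.764 and 1.15 CPM in PBS replicates 2 and 3. With this standard error a moderate rise of Lif could not be told from none.

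The IL-20 subfamily lies in a cluster on chromosome 1 together with Il10, in which 19.5 kb separate Il24 from Il20 and 21.2 kb separate Il20 from Il19. Il19 gave 2, 3 and 1 counts in the PBS libraries and 39, 33 and 66 counts in those of the combination. In the single treatments it was uneven, with 36, 1 and 0 counts with IL-17A and 7, 35 and 3 counts with IL-36γ. A single library therefore carried most of the Il19 counts of each of these 2 groups, and the combination was the only group in which all 3 libraries were high.

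The log2 fold change of Il19 against PBS was 4.75 (SE 1.22, adjusted p = 0.00791) with the combination and remained called in all 19 alternative analyses in which it could be tested. As a ratio of summed counts, scaled for depth, it was 29.0 with an exact 95% Poisson interval from 13 to 80.4, an interval that covers counting error only. With IL-17A it was 2.91 (SE 1.45, adjusted p = 0.194) and with IL-36γ 2.98 (SE 1.41, adjusted p = 0.131). Without IL-17A replicate 1 the value with IL-17A turned to -1.49, that with IL-36γ passed the test (adjusted p = 0.0309), and the combination exceeded IL-17A by 6.23 (adjusted p = 0.00337).

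Il20, the neighbour of Il19, gave 18, 10 and 24 counts with PBS, 6, 22 and 5 with IL-17A, 19, 18 and 11 with IL-36γ and 12, 19 and 19 with the combination. Neither a rise nor a fall was called, with log2 fold changes against PBS of -0.33 (SE 0.48), 0.06 (SE 0.45) and 0.26 (SE 0.45), and the groups overlapped in all comparisons. Il24 was near 0 in most libraries. It gave 17 counts in IL-17A replicate 1, the library that also held the highest Il19 count of its group, 6 counts in combination replicate 3, and 2 or fewer in the other 10 libraries. Il24 was too low for the test, and the 17 counts come from 1 library.

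Of the other genes of this locus, Il10 was raised in all 3 comparisons against PBS. Pigr, which transports antibodies across epithelia, was lowered by 1.22 on the log2 scale with IL-36γ (adjusted p = 0.0143) and by 1.13 with the combination (adjusted p = 0.0127). Mapkapk2, a kinase that stabilises cytokine messages, stood 0.62 higher on the log2 scale with the combination (SE 0.07, adjusted p = 8.8e-05), below the fold change required. Psmd3, beside Csf3, differed by 0.50 (SE 0.12, adjusted p = 0.00583), also below it.

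Csf3, which encodes G-CSF, gave 0, 4 and 0 counts with PBS, 7, 2 and 3 with IL-17A, 3, 14 and 1 with IL-36γ and 13, 13 and 20 with the combination. Every combination library was above all 6 libraries of PBS and IL-17A, and above those of IL-36γ as well, of which replicate 2 came closest with 0.426 against 0.476 CPM. The log2 fold change of the combination against PBS was 3.72 (SE 0.89, adjusted p = 0.00556) and stayed called in all 19 alternative analyses that could test it, between 3.16 and 7.05, the highest without PBS replicate 2, which held all PBS counts of the gene. The ratio of summed counts, scaled for depth, was 14.5 with an exact 95% Poisson interval from 5.29 to 55.4, which covers counting error only. Neither cytokine alone passed the test for Csf3, with 1.84 (SE 1.14, adjusted p = 0.292) with IL-17A and 2.22 (SE 1.06, adjusted p = 0.132) with IL-36γ. Single libraries moved these values widely: that with IL-17A ran from 1.14 without IL-17A replicate 1 to 5.16 without PBS replicate 2, and that with IL-36γ from 0.76 without IL-36γ replicate 2 to 5.55 without PBS replicate 2, and none passed the test.

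Csf2, which encodes GM-CSF, was low in every group. It gave 5, 8 and 6 counts with PBS, 2, 8 and 4 with IL-17A, 2, 6 and 5 with IL-36γ, and 2, 3 and 3 with the combination, where all 3 libraries were below those of PBS. The ratio of the combination to PBS was 0.531 with an exact 95% Poisson interval from 0.201 to 1.27, which covers counting error only. The antisense gene Gm12223 shares 96 exon bases with Csf2, and the strand used for counting is not stated in the sources used here, so a few of these counts could belong to it.

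Il23a gave 1, 6 and 0 counts with PBS, 2, 3 and 4 with IL-17A, 5, 6 and 4 with IL-36γ and 8, 2 and 8 with the combination. The ratio of the combination to PBS was 3.24 with an exact 95% Poisson interval from 1.29 to 9.18, which leaves out the spread between mice. In the fit without a filter on low counts the adjusted p-values of the combination against PBS were 0.136 for Il23a, 0.462 for Il24 and 0.332 for Csf2. DESeq2 gave 0.0724, 0.510 and 0.232 for the same genes in this order. No difference in these 3 genes was called, with counts this low and this spread between libraries.

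**Figure D3:**
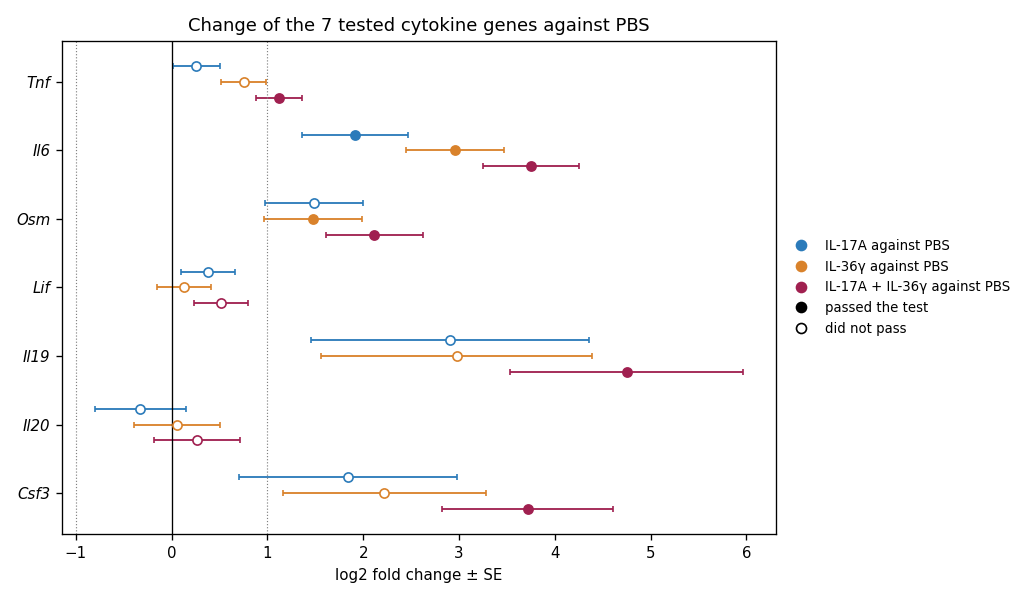
Log2 fold change against PBS of the 7 tested cytokine genes with its standard error, in blue for IL-17A, orange for IL-36γ and dark red for the combination; filled points passed the test and dotted lines mark an absolute log2 fold change of 1. The combination lies furthest to the right for each gene, and Lif and Il20 have no filled point.

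The order of the genes by level per length changed between groups. Per kb of exon, the means with PBS were 1.65 CPM for Tnf, then 0.424 for Il20, 0.361 for Osm, 0.276 for Lif, 0.228 for Csf2 and 0.110 for Il6. Tnf stood above Il20 by more than the sum of their SDs, and the steps from Il20 down to Csf2 were smaller than that. With the combination the order was Tnf at 3.59, Osm at 1.58, Il6 at 1.5 and Il19 at 1.43, followed by Il20 at 0.506, Lif at 0.397, Csf3 at 0.390 and Csf2 at 0.120. Here Tnf stood above Osm, Il19 above Il20, and Csf3 above Csf2 by more than the sum of the SDs. Osm, Il6 and Il19 did not differ beyond it. Il6 moved from the sixth to the third place and Il20 from the second to the fifth.

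The question whether IL-17A adds to IL-36γ was addressed by the combination against IL-36γ alone. None of the 7 genes was called raised there. No gene among all 19408 tested was called raised either (0%), so the lack of calls is not particular to these genes. Of the 7, 1 gene, Csf3, had an unadjusted p-value under 0.05 (1.49 on the log2 scale, SE 0.68, adjusted p = 0.328). DESeq2 also called none. The 7 log2 differences were all positive, from 0.21 for Il20 to 1.77 for Il19 (SE 0.88, adjusted p = 0.366). In Tnf, Il19 and Csf3 the 3 combination libraries all lay above the 3 IL-36γ libraries, which was so for 9.33% of all tested genes. Of the genes tested here, Il6 alone was called between the combination and IL-17A, where 4.46% of all tested genes were raised. In Tnf, Il6 and Csf3 the combination libraries lay above all IL-17A libraries, as in 23% of all tested genes.

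A direct comparison of IL-36γ with IL-17A called none of the 7 genes (1.25% of all tested genes were raised), and Il6 alone had an unadjusted p-value under 0.05, with a log2 difference of 1.05 (SE 0.44, adjusted p = 0.164). The interaction compares what IL-17A changed when IL-36γ was given too with what it changed when given alone, as a difference of log2 values. At an adjusted p-value below 0.05, with no fold change required, it was called for none of the 7 genes and for 0.551% of all tested genes. No unadjusted p-value was under 0.05, and DESeq2 called none of the genes in the direct comparison or in the interaction. The estimates were -1.12 (SE 0.68) for Il6, -1.13 (SE 1.75) for Il19, -0.85 (SE 0.69) for Osm, -0.35 (SE 1.16) for Csf3 and 0.11 (SE 0.33) for Tnf. With such standard errors a departure from additivity of about 1 on the log2 scale could not be told from none in Il6, Il19, Osm and Csf3. For Il19 and Csf3, which had the larger standard errors, this holds for larger departures too.

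Markers of several cell types differed between the groups. The summed level of 8 neutrophil markers (Ly6g, Cxcr2, Csf3r, Retnlg, Cd177, Stfa2l1, Trem1 and Mmp8) ranged from 8.0 to 15.6 CPM with PBS, 22.2 to 60.6 with IL-17A, 59.4 to 87.0 with IL-36γ and 102 to 206 with the combination, with Ly6g at 0 in all 3 PBS libraries. Of the 8 markers, 3 were raised with IL-17A, 7 with IL-36γ and 8 with both. The 8 monocyte and macrophage markers summed to 736 to 871 CPM with PBS, 1195 to 1559 with IL-17A, 1830 to 2024 with IL-36γ and 1722 to 1967 with both. The 4 keratinocyte keratins summed to 11552 to 16964 CPM with PBS and to 27909 to 33903 CPM with both, where 2 of them were raised. The 5 mast cell markers, at 182 to 281 CPM over all libraries, were not called between any 2 groups, nor were the 3 endothelial or the 3 skeletal muscle markers, and of the 4 fibroblast markers 1 was lower with IL-36γ than with IL-17A. Among the mast cell markers, Kit stood at -0.79 on the log2 scale with both (adjusted p = 0.00252), short of the fold change required. The other mast cell markers overlapped with PBS there. Of 7 markers of alpha-beta T cells, 3 were raised with IL-36γ (Trac, Cd4 and Cd8a) and 2 with both (Trac and Cd8a). With both, Cd3e stood at -0.63 (adjusted p = 0.067) and Cd3g at -0.71 (adjusted p = 0.000742) on the log2 scale. Cd3d, Trbc2 and Cd4 stood above 0 there, and none of these was called. The sum of the 7 stayed between 26.1 and 35.2 CPM over all libraries. It mixes these directions and holds Cd3e, which is also in the list of epidermal gamma-delta T cells.

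Other markers were lowered. The 4 markers of epidermal gamma-delta T cells summed to at least 17.2 CPM with PBS (median 18.2), 15.2 to 20.1 with IL-17A, 9.14 to 12.1 with IL-36γ and 7.90 to 8.76 with both, where 3 of them (Trdc, Trdv4 and Xcl1) were lowered. Cd207, which encodes langerin of Langerhans cells, was lowered by 2.05 on the log2 scale with IL-36γ and by 3.28 with both, as 1 of 5 markers of dendritic and Langerhans cells. Both adipocyte markers (Adipoq and Plin1) and 1 of 2 cartilage markers (Acan) were lowered with the combination. The part of all these cells in the changes of the cytokine genes was not tested.

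Within the groups the same libraries were high in several genes. In IL-17A replicate 1, where the neutrophil markers summed to 60.6 CPM against 22.2 and 32.5 CPM in the other 2 libraries, Tnf, Osm, Il19, Il24 and Csf3 were each the highest of their group. IL-36γ replicate 2, with the highest neutrophil markers of its group (87.0 CPM), held the highest Tnf, Osm, Il19 and Csf3 of its group. The controls showed it too: in PBS replicate 2 the neutrophil markers summed to 15.6 CPM, the highest of the PBS libraries. Tnf, Osm, Il19 and Csf3 were also highest of their group there, with Il19 at 3 counts and Csf3 at 4. The pattern did not extend to the combination. In its replicate 1, with the highest neutrophil markers of the 12 libraries (206 CPM), Osm was the highest of its group, while Tnf, Il19 and Csf3 were highest in replicate 3, where the markers summed to 140 CPM. Il6 was lowest of its group in IL-36γ replicate 2 and in combination replicate 1. Csf3r and Cxcr2 were the largest parts of the marker sums, and some markers departed from them. Ly6g, Retnlg and Mmp8 were higher in IL-36γ replicate 3 than in replicate 2. Cd177 was lowest of its group in IL-17A replicate 1 and highest in combination replicate 3. Cxcr2 and Retnlg were highest of the controls in PBS replicate 1, and Ly6g was 0 in all PBS libraries. The other markers were highest of each group in the library with the highest sum.

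**Figure D4:**
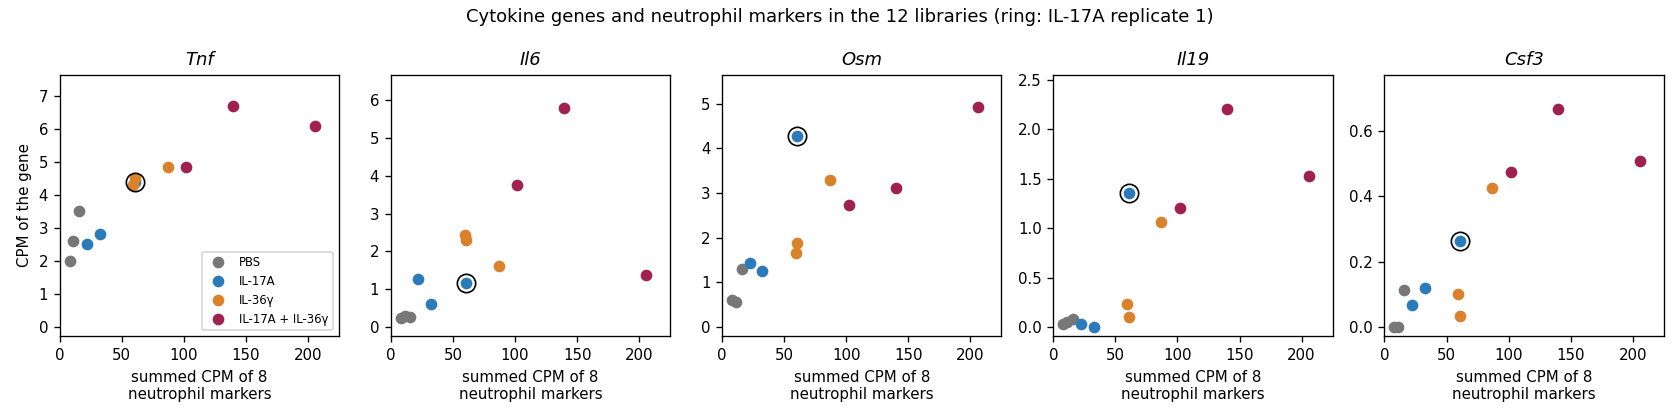
CPM of the 5 genes raised by the combination against the summed CPM of 8 neutrophil markers, 1 point per library, with IL-17A replicate 1 ringed. The levels of Osm and Il19 in the ringed library lie within the range of the combination libraries. Its markers, at 60.6 CPM, lie to the left of theirs, at 102 CPM or more. Combination replicate 1, furthest to the right at 206 CPM, is low for Il6 at 1.37 CPM.

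Over the 12 libraries, and thus including the differences between groups, the log2 CPM of Osm, Il19, Csf3 and Tnf had Pearson correlations with each other between 0.84 and 0.89, and those of Il6 with these 4 were between 0.67 and 0.78. Lif and Il20 had correlations with them of 0.37 or lower. The tested genes most like Osm were Srgn (0.99), Plaur (0.98) and Dpep2 (0.98), and those most like Csf3 were Ifit1bl2 (0.97), Ncf4 (0.97) and Erfe (0.95). Most like Tnf were Cd101 (0.96), Mirt1 (0.96) and Trim30b (0.96), and most like Il6 were Ccl7 (0.96), a monocyte attractant, Selp (0.95), the endothelial selectin for leukocytes, and Kcnab2 (0.95). Il19 was most like Gsta4 (0.96), Htr7 (0.94) and Krt6a (0.94), a stress keratin of keratinocytes. The closest genes of Lif (Aadac 0.94, Ift52 0.93, Abcb10 0.92) were nearly as close as those of Il19, although Lif was called in no comparison. Those of Il20 (Cacna1b 0.86, Gm26512 0.84, Gm14396 0.83) were further off. All are the highest values among 19408 genes over 12 libraries, and they are a description only.

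Of 54 related genes in 4 lists (other ligands of these families, receptors, inhibitors and decay factors, and transcription and processing), 49 were tested. Raised were 3 with IL-17A, 11 with IL-36γ and 12 with the combination, where 1.07%, 5.11% and 7.35% of all tested genes were raised. Lowered were 0, 1 and 1, where 1.03%, 1.98% and 6.06% of all tested genes were lowered. The median log2 fold change of the 49 genes was 0.16, 0.29 and 0.32. Among 16 other ligands, of which 11 were tested, the largest change was that of Il22, a keratinocyte-directed relative of IL-10 made by lymphocytes. It gave 0, 1 and 0 counts with PBS, 1, 0 and 0 with IL-17A, 5, 39 and 11 with IL-36γ and 18, 13 and 9 with both, so it was called with IL-36γ (adjusted p = 0.00402) and with both (adjusted p = 0.00342). Since the PBS group held 1 count, the ratio of IL-36γ to PBS of 62.5 had an exact 95% Poisson interval from 10.8 to 2513. That interval leaves out the spread between mice, and IL-36γ replicate 2 held 39 of the counts.

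Il10, an inhibitor of macrophage activation, rose by 1.74 on the log2 scale (SE 0.42, adjusted p = 0.0292) with IL-17A, by 2.41 (SE 0.39, adjusted p = 0.00114) with IL-36γ and by 2.13 (SE 0.40, adjusted p = 0.0013) with both. Ebi3, the shared subunit of IL-27 and IL-35, rose by 1.85 with IL-36γ and by 1.78 with both, and stood at 0.10 (adjusted p = 0.788) with IL-17A. IL-36γ exceeded IL-17A in Ebi3 by 1.75 (SE 0.19, adjusted p = 0.00124). Ltb, a relative of Tnf that lies beside it on chromosome 17, rose by 1.20 with IL-36γ and by 1.95 with both. Lowered were Il11 with IL-36γ (-1.03, adjusted p = 0.013) and Il34, a keratinocyte product that maintains Langerhans cells, with both (-1.11, adjusted p = 4.23e-05). The partner of Il23a, Il12b, did not pass the filter on low counts.

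Of the 16 receptor genes, 3 were called with the combination, and the median log2 fold change of the list was 0.48. Csf3r, the receptor of G-CSF and a marker of neutrophils, rose from 4.02 ± 1.77 CPM with PBS to 14.4 ± 7.70 with IL-17A, 32.9 ± 8.40 with IL-36γ and 76 ± 24.7 with both (SD, n = 3), a log2 fold change of 4.24 (SE 0.43, adjusted p = 2.99e-05) for the last. Tnfrsf1b, the inducible receptor of TNF, rose by 1.94 with IL-36γ and by 2.05 with both, whereas the ubiquitous receptor Tnfrsf1a differed by 0.37 (SE 0.09, adjusted p = 0.00663) with both. Csf2rb, the common chain of the GM-CSF receptor, rose by 1.21 (SE 0.16, adjusted p = 0.000146) with both. The gp130 gene Il6st differed by -0.12 (SE 0.08, adjusted p = 0.231), and Osmr by 0.58 (SE 0.10, adjusted p = 0.000971), below the fold change required. The IL-20 receptor genes Il20ra and Il20rb stood at -0.72 (SE 0.16, adjusted p = 0.00326) and -0.24 (SE 0.10, adjusted p = 0.0689) with both.

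Among inhibitors and decay factors, 3 of 10 were raised with the combination. Zc3h12a, which encodes regnase-1, an endonuclease that degrades Il6 messages, rose by 1.53 with IL-17A (SE 0.15, adjusted p = 0.00106), by 1.39 with IL-36γ (SE 0.15, adjusted p = 0.000116) and by 1.88 with both (SE 0.15, adjusted p = 1.12e-05). Tnfaip3 (A20), a brake on NF-κB, rose by 1.53 with IL-36γ and by 1.07 with both, and Socs3, the inhibitor of gp130 signalling, by 1.14 with both. Zfp36, which binds the AU-rich pentamers shown above, rose by 1.18 with IL-36γ (SE 0.17, adjusted p = 0.00072) and stood at 0.84 (SE 0.17, adjusted p = 0.00237) with both.

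Of 12 genes of transcription and processing, Batf and Nfkbiz were raised. Nfkbiz, which encodes IκBζ, a cofactor of NF-κB that is needed for a part of its targets in keratinocytes, rose by 1.04 with IL-36γ and by 1.20 with both, and stood at 0.86 (SE 0.11, adjusted p = 0.00619) with IL-17A. Batf, a transcription factor of T cells and myeloid cells, rose by 1.78 with IL-36γ and by 2.01 with both.

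**Figure D5:**
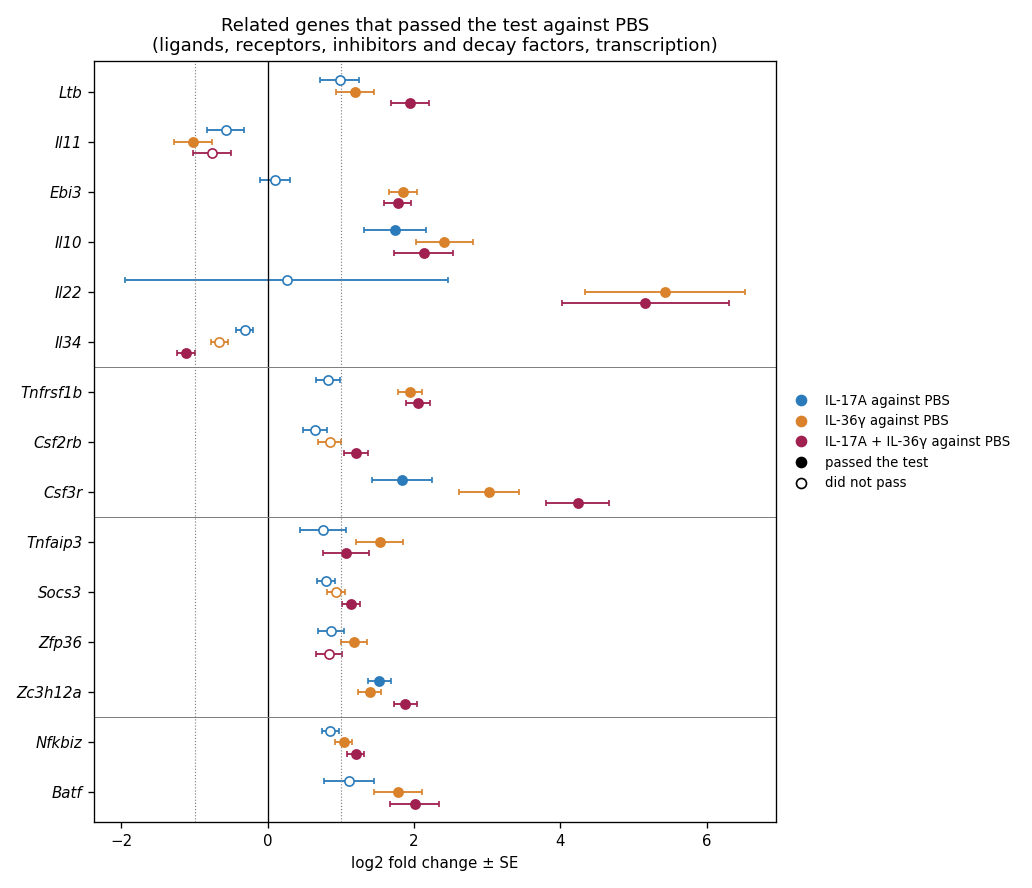
Log2 fold change against PBS, with its standard error, of the 15 related genes that passed the test in at least 1 comparison, in blue for IL-17A, orange for IL-36γ and dark red for the combination; filled points passed, and lines divide ligands, receptors, inhibitors with decay factors, and transcription. Il22 with IL-36γ and with the combination lies furthest to the right, followed by Csf3r with the combination at 4.24, and Il11 and Il34 lie left of 0.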

How the data were processed

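RNA of 12 mouse ears (4 groups of 3) was analysed from the deposited table of raw counts per Ensembl gene. Per the labels and methods, the authors aligned paired reads of 76 bases to mm10 with STAR 2.5.2b and counted them with featureCounts (Subread 1.5.1). Tables of the authors' own DESeq2 comparisons (log2 fold changes, p-values) were used for gene symbols only. The software was edgeR 4.0.16 and, as an alternative, DESeq2 1.42.0, in R 4.3.3. Genes were filtered with filterByExpr (minimum count 10), scaled by TMM and tested in 1 quasi-likelihood fit of the 4 group means, with Benjamini-Hochberg adjustment over 19408 genes. Standard errors were derived from the F statistic. Positions and 3′ untranslated regions came from GENCODE vM21 (GRCm38; per gene, the protein coding transcript with the longest coding part), and promoters from RefSeq. On simulated data of the combination against PBS over 19128 genes, 194 genes were changed by 2 on the log2 scale. Of these, 173 (89.2%) were called, with 1 false call. In the interaction, with the same size of 2, 154 (79.4%) were called with 6 false calls. Recovery nearer the required fold change, and recovery at low counts alone, was not tested.

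The cytokine genes and all lists were chosen with earlier results of these data known. Named besides the 10 genes were listed genes called in any comparison (up to 8 a list), tested neighbours, and the 3 genes with the highest correlation to each tested cytokine gene; Il6st, Osmr, Tnfrsf1a, Il20ra, Il20rb and Il12b were named after their values were seen. Libraries of a group were not copies of each other (chi-square per gene 7.09 to 64.0 over 12 pairs). Correlations of deviations between libraries with the same replicate number were -0.20 to 0.35, so numbers were not taken as pairs. In all, 20 alternative settings were run.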

Additional observations from a re-analysis of the deposited data

Results flagged for a closer look

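A pair of the decay factors in the lists, both relatives of Zfp36 that bind AU-rich pentamers, were singled out because the change by IL-17A differed with the presence of IL-36γ in the test of the interaction. In Zfp36l1 the change by IL-17A was 0.63 on the log2 scale without IL-36γ and -0.23 with it, an interaction of -0.85 (SE 0.10, adjusted p = 0.0122). Its mean level was 57.7 ± 3.08 CPM with PBS, 89.2 ± 0.689 CPM with IL-17A, 75.1 ± 4.71 CPM with IL-36γ and 64.1 ± 5.03 CPM with both (SD, n = 3). In Zfp36l2 the change by IL-17A was 0.50 without IL-36γ and -0.27 with it, an interaction of -0.78 (SE 0.14, adjusted p = 0.0475). The interaction was called at an adjusted p-value below 0.05 with no fold change required, and 0.423% of all tested genes were called in this direction.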

How the results depend on the processing

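Of the 7 tested cytokine genes, the number called after IL-17A against PBS was 1, and it was 2 with DESeq2 and with no filter (Osm was added, adjusted p = 0.0476 with each), and 0 with DESeq2-type size factors, with library size only, with only the groups compared, and with at least 10 counts in every library, a filter that removed Il6 by its construction; leaving out a library gave 0 to 1. After IL-36γ it was 2, and 1 with library size only and with at least 10 counts in every library; leaving out a library gave 1 to 3. After the combination it was 5, and 2 with at least 10 counts in every library. The combination against IL-17A called 1, and 0 with at least 10 counts in every library, 2 with only the groups compared (Csf3 was added, 1.88) and 2 with no fold change threshold; leaving out a library gave 1 to 4, the 4 without IL-17A replicate 1, while IL-17A replicate 2 added Il20 (1.5), and IL-36γ replicate 2 added Csf3. Related genes called were 3, 12 and 13 in the 3 comparisons with PBS, and 12, 27 and 30 with no fold change threshold; after IL-17A they were 1 with only the groups compared and 1 to 3 when a library was left out, the lowest without PBS replicate 3. The cause was not tested apart from the filters.

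With library size only, the median of all genes after IL-36γ moved from -0.015 to -0.165, and the sign turned there for Il20 (-0.095) and Lif (-0.011). In IL-36γ against IL-17A the median moved from -0.011 to 0.010, and the sign turned for Osm (0.025, and 0.0064 with no filter). None of these was called. Leaving out a library turned the sign of uncalled values over these ranges: after IL-17A Il19 (-1.49 to 3.46), Tnf (-0.054 to 0.48) and Il20 (-1.25 to 0.014), after IL-36γ Il20 (-0.23 to 0.41) and Lif (-0.11 to 0.47), after the combination Il20 (-0.016 to 0.62), in the combination against IL-17A Lif (-0.030 to 0.34), in IL-36γ against IL-17A Il19 (-1.41 to 4.45), Csf3 (-1.08 to 1.06) and Osm (-0.38 to 0.78), and in the interaction Il19 (-1.69 to 3.27), Tnf (-0.11 to 0.43), Lif (-0.33 to 0.27) and Csf3 (-3.66 to 1.11).

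With the replicate number as a block, the number of the 7 genes called after IL-17A went from 1 to 0 (Il6, adjusted p = 0.051), Osm in IL-36γ against IL-17A turned to 0.062 and the interaction of Lif to -0.0062. It changed no other call of the 7 genes. Of 18 pairs of libraries with the same number, 9 had a correlation over 0.1. Counts under 10 in a library limit Il24, Il23a and Csf2, and the PBS levels of Il19 and Csf3.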
